A study of Mus musculus with 4 samples.

Results

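The nuclei described here carried the deposited labels Ad Ia or Ad Ib, together called Ad I, in single-nucleus RNA libraries of thymic and epigonadal adipocytes from mice. There were 84 of them in the thymic library (35 Ad Ia, 49 Ad Ib) and 258 in the epigonadal library (106 Ad Ia, 152 Ad Ib). Together they made 342 of the 1929 labelled nuclei and of the 27643 barcodes in both libraries. Their unique molecular identifiers (UMIs, one per captured RNA molecule) were summed within each library, and every gene was compared between the thymic and the epigonadal sum.

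Both libraries came from wild-type, naïve male C57BL/6 mice aged 4 months and fed standard chow. The thymic library pooled the thymi of 6 mice, cleaned of the fat around the capsule. How many mice the epigonadal library drew on is not stated in the sources at hand. Adipocytes were taken as the floating layer after collagenase digestion, and nuclei were prepared from it. There was 1 library per depot, so the ratios below have no replicate check. Their intervals cover counting error only, depot and library cannot be told apart, and no test of the depots was made.

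Thymic fat accumulates as the thymus shrinks with age, and it lies among developing T cells and thymic epithelium. Epigonadal fat is a visceral white depot that stores triglyceride and secretes adipokines. Fatty acid oxidation in adipocytes is driven by the nuclear receptor PPARα and by the estrogen-related receptors (ERRs), which work with the PGC-1 coactivators. These factors switch on carnitine palmitoyltransferases, acyl-CoA dehydrogenases and enzymes of the tricarboxylic acid (TCA) cycle. Thermogenic, or brown-like, adipocytes run the same programme at a high level. White adipocytes carry a collagen-rich pericellular matrix and large lipid droplets coated with CIDEC and perilipins.

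The sums were unequal in depth. Thymic Ad I nuclei held 61235 UMIs, of which 52241 came from nuclear-encoded genes. Epigonadal Ad I nuclei held 279431, of which 263848 were nuclear-encoded. A single UMI was therefore worth 19.1 CPM in the thymic sum and 3.79 CPM in the epigonadal sum, where CPM is the count scaled to a common total of nuclear-encoded UMIs (counts per 1e6). The nuclei also differed in quality. The median nucleus had 500.5 UMIs in the thymic library (range 328 to 6655) and 744.5 in the epigonadal library (range 501 to 5212). The median mitochondrial share was 17.3% in thymic Ad I nuclei (4.83% to 19.9%) and 4.52% in epigonadal ones (0% to 14.6%). The 5 largest nuclei supplied 28.0% of the thymic UMIs and 8.63% of the epigonadal UMIs. Malat1, Neat1 and Meg3, RNAs kept in the nucleus, summed to 59455 CPM in thymic and 42411 CPM in epigonadal Ad I nuclei. The log2 ratio, thymic over epigonadal, was 0.50 for Malat1 but -0.09 for Neat1. Of 6 listed nuclear-retained RNAs with at least 10 UMIs, 1 was above 0, and their median was -0.24. The part of these differences in the ratios was not tested. Of the 84 genes named with ratios below that had a UMI on both sides, 78 could be compared in nuclei under 15% mitochondrial UMIs, and 21 of these ratios moved by over 1.5 times. With nuclei of 500 or more UMIs, 9 of 80 moved that far, and without the 5 largest nuclei of each library 9 of 84. The restricted values printed below are examples, picked after the values were seen. Of the 64 such genes past 2-fold, 20 came inside 2-fold under 1 or more of the alternatives tried: Adamts12, Adcy5, Adrb3, Cachd1, Chchd3, Dst, Egfr, Fabp4, Lrig2, Meis2, Mlxipl, Nampt, Nr2c2, Nr3c2, Prr16, Ptpn4, Ralgapa2, Retn, St3gal6 and Tenm4.

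**Figure D1:**
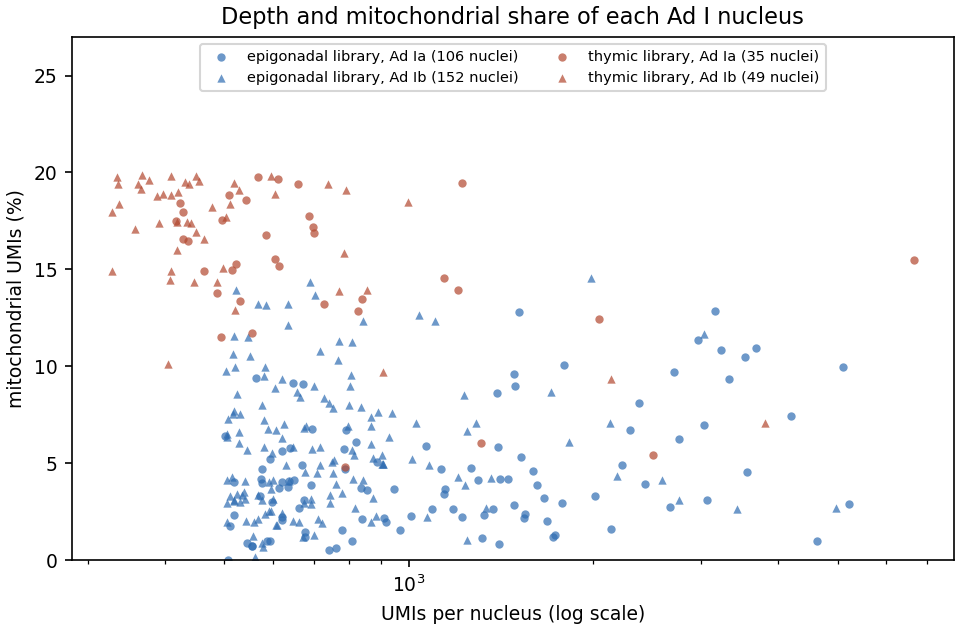
Each point is 1 Ad I nucleus, placed by its UMIs (x axis, log scale) and its percentage of mitochondrial UMIs (y axis), with colour for the library and shape for the label. Thymic nuclei lie lower in UMIs and higher in mitochondrial share than epigonadal nuclei, and 27 of the 84 thymic nuclei fall under 15% mitochondrial UMIs against all 258 epigonadal ones. Over all labelled groups, epigonadal nuclei end at 14.9% and start at 500 UMIs, and thymic ones end at 19.97% and start at 328 UMIs. Limits of 15% and 500 UMIs thus remove thymic nuclei only.

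The labels were checked against marker genes. Of 14 adipocyte genes, such as Pparg, Lpl, Plin1 and Ghr, 2 or more were detected in 79 of 84 thymic and 258 of 258 epigonadal Ad I nuclei. Barcodes without a label also had 2 or more in 19.1% (thymic) and 90.3% (epigonadal), so this separated them little in the epigonadal library. The barcodes without a label differed in kind too, with median mitochondrial shares of 69.3% and 10.9%. Summed over those 14 genes, the level was 26818 CPM in thymic and 37431 CPM in epigonadal Ad I nuclei, against 7090 and 23984 CPM in the barcodes without a label of the same libraries. At least 1 of the given Ad I markers, Ppargc1b, Erbb4, Ppara and Pank1, had a UMI in 66 of 84 thymic Ad I nuclei (78.6%, exact binomial 95% interval 68.3% to 86.8%). The count was 103 of 258 in the epigonadal library (39.9%, 33.9% to 46.2%). Ad IIa nuclei, another labelled group in the files, had such a UMI in 30 of 231 thymic and 13 of 590 epigonadal nuclei. This was so although they were deeper (median 1696 and 1916 UMIs). Of them, 221 and 580 held 2 or more of the 14 adipocyte genes. They held 805 and 628 CPM of the endothelial gene Cdh5, against 76.6 and 110 CPM in Ad I nuclei. Of Cidec they held 19.9 and 564 CPM, against 613 and 2562 CPM. Comparisons with Ad IIa nuclei below are to be read with these levels. Unlabelled barcodes had a UMI of an Ad I marker in 8.41% and 7.88% (median 308 and 794 UMIs). Summed over the 4 markers, they held 722 and 107 CPM, against 4307 and 606 CPM in Ad I nuclei. The unlabelled levels thus differed between the libraries in the same direction. The share with an Ad I marker was thus lower in epigonadal than in thymic Ad I nuclei. All 4 markers were past 2-fold higher in the thymic sum, so this restates their ratios and is no check of the labels. It describes these libraries and has no replicate check. Of the 147 barcodes that the libraries shared, 0 were Ad I in both, and 9 epigonadal Ad I barcodes also occurred in the thymic library.

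RNA of other cells was present at different levels. An 18-gene T cell list summed to 1493 CPM in thymic Ad I nuclei, 500.3 CPM in epigonadal Ad I nuclei and 12613 CPM in the unlabelled thymic barcodes. Cd3d, Cd3e, Cd4 and Rag2 were at 0 in both Ad I sums and Ptcra in the thymic sum only. Cd8a, Cd8b1, Dntt and Rag1 were at 0 in the epigonadal sum only. Of the 6 members with at least 10 UMIs, 4 (66.7%, against 15.2% of all genes) were past 2-fold on the thymic side. On the epigonadal side 1 was (16.7%, near 17%), and the median log2 ratio was 1.47. The 4 included Themis (10 thymic and 7 epigonadal UMIs) and Tcf7 (10 and 5). A 14-gene macrophage list summed to 383 CPM in thymic and 1258 CPM in epigonadal Ad I nuclei, with Adgre1, C1qb, Cd163, F13a1, Itgam, Lyz2 and Ptprc at 0 in the thymic sum. A 14-gene fibroblast list summed to 1091 and 1103 CPM, but Ebf2, which adipocytes also express, held 45 of its thymic UMIs. Without Ebf2 the list was lower in thymic nuclei, at 229.7 CPM (12 UMIs) against 860.3 CPM (227 UMIs), and stood at 539 and 1663 CPM in unlabelled barcodes; Pdgfra, Dpp4, Lum and Dcn were at 0 in the thymic sum. An endothelial list was also near even in sum, at 2125 CPM in thymic and 1925 CPM in epigonadal Ad I nuclei, with Tie1 and Vwf at 0 in the thymic sum, and stood at 1668 and 3443 CPM in unlabelled barcodes. By label it was uneven, at 253 CPM in thymic Ad Ia and 4231 CPM in thymic Ad Ib nuclei, against 1142 and 2861 CPM in the epigonadal ones. The epididymal epithelium list, which a male gonadal fat dissection could carry, was at 0 CPM in thymic and 26.5 CPM in epigonadal Ad I nuclei. The latter were 7 UMIs of Defb1 alone, and the other 7 of its 8 genes were at 0 in both sums. The part of these cells' RNA in the ratios was not tested, and the level in unlabelled barcodes is given beside the leading genes.

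Across the genome 3625 of 5346 genes with at least 10 UMIs over both sums lay within 2-fold between the depots. Of the 5346, 810 (15.2%) were 2-fold or more higher in the thymic sum and 911 (17%) were 2-fold or more higher in the epigonadal sum. Of the 911, 437 had 0 thymic UMIs, and with each 0 set at a limit of 3 UMIs, 495 (9.26%) were left. Folds against a count of 0 below use this limit, and they leave out the counting error of the other sum. Among the 1084 better-counted genes with at least 50 UMIs, the counts were 99 (9.13%) and 115 (10.6%). The median log2 ratio was 0.08 over the 5346 genes and 0.13 over the 1084. Scaling moved the balance: genes higher in the thymic sum were 47.1% of those past 2-fold with CPM, 23.3% with the edgeR TMM factors and 15.1% with a median-of-ratios factor, which put the median ratio of all genes at -0.26 and -0.44. The ratios below are on the CPM scale, and a list's median is to be read against 0.08.

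**Figure D2:**
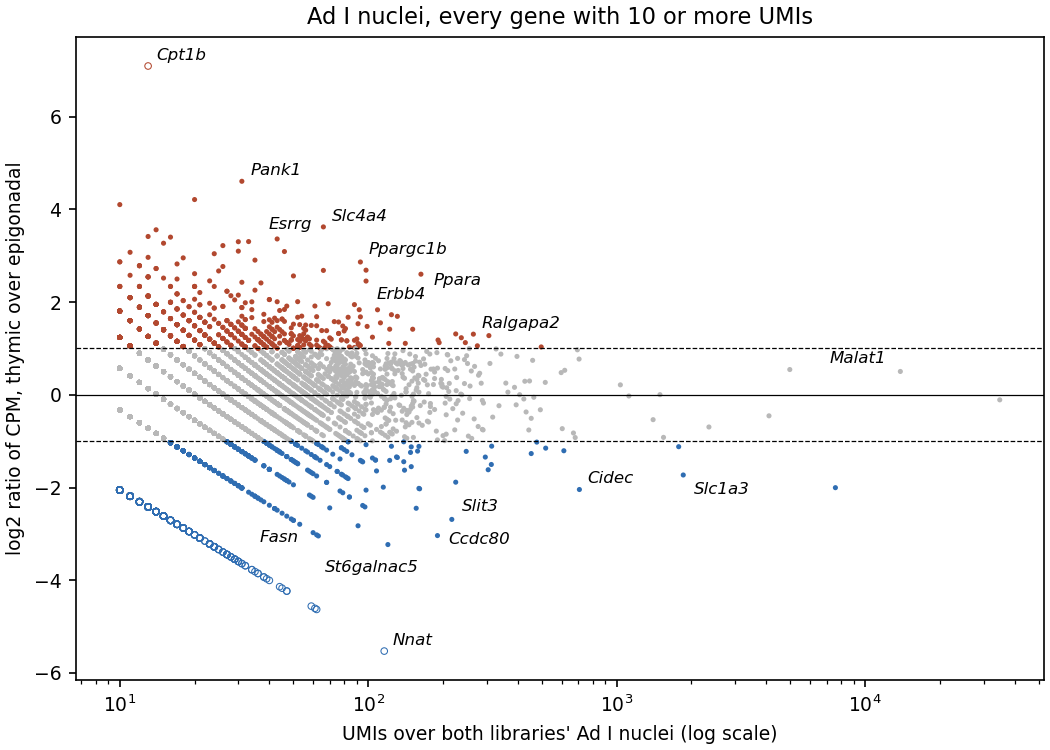
Each point is 1 of 5346 genes, with its UMIs over both Ad I sums on the x axis (log scale) and its log2 ratio of CPM, thymic over epigonadal, on the y axis; dashed lines mark 2-fold, and open circles mark genes at 0 UMIs on 1 side, whose height depends on the pseudocount of 0.5. Ppara, Ppargc1b, Erbb4 and Slc4a4 stand above 2-fold at 50 or more UMIs, Slc1a3 and Cidec stand below it at higher counts, and most well-counted genes lie between the lines.

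The thymic side was led by Slc4a4, a bicarbonate cotransporter, the receptor Ppara, its coactivator Ppargc1b and the neuregulin receptor Erbb4. Ranked by the interval bound nearest 0 among 1002 eligible genes, and held to at least 2 times the level in the unlabelled barcodes of the same library, the 15 leading genes included Slc4a4, Ppara, Ppargc1b, Erbb4, Akap1, Tob2, Ebf2, Slc36a2, Tmem45b, Rgs7, Acadm, Fgf14, Ptpn4 and Ralgapa2. All 15 were above 2-fold in Ad Ia nuclei alone and in Ad Ib nuclei alone, with medians of 1.87 and 2.15 on the log2 scale. In the unlabelled barcodes 13 of the 15 were also higher in the thymic library, 9 of them by 2-fold or more. In Ad IIa nuclei 9 of the 15 were above 0, 4 past 2-fold toward the thymic library and 3 past 2-fold toward the epigonadal library. The top nucleus supplied 6.38% to 16.7% of each gene's thymic UMIs. The 15 genes were chosen for their ratios, so these values describe them and are no test.

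Slc4a4 (chr5:88793858-89239656, GRCm38.p6), which encodes an electrogenic sodium bicarbonate cotransporter, had 47 thymic and 19 epigonadal UMIs, or 899.7 and 72.0 CPM. Its log2 ratio was 3.62 (95% counting interval 2.85 to 4.49). It was detected in 32 thymic nuclei and 18 epigonadal nuclei, and no thymic nucleus held more than 3 of its UMIs. In Ad Ia nuclei the ratio was 2.80 and in Ad Ib nuclei 4.66. Ad IIa nuclei held only 1 thymic and 13 epigonadal UMIs, with a counting interval that includes 0 (-7.49 to 0.66). Unlabelled barcodes had 156 and 56.9 CPM. The thymic Ad I level was thus above each of the other levels.

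Ppara (chr15:85734910-85806851), the fatty acid receptor that switches on oxidation genes, had the most UMIs of the 4 given markers. Its counts were 89 thymic and 74 epigonadal UMIs, or 1704 and 280.5 CPM, a log2 ratio of 2.60 (2.14 to 3.07). The difference was larger between Ad Ib nuclei (56 and 22 UMIs, 3.62) than between Ad Ia nuclei (33 and 52 UMIs, 1.73); the difference of those ratios was not tested. Restriction to nuclei with 500 or more UMIs left 42 thymic and all 258 epigonadal nuclei, and a ratio of 1.74. In unlabelled barcodes Ppara was at 299 CPM in the thymic and 29.1 CPM in the epigonadal library, so the epigonadal Ad I level was close to that of unlabelled thymic barcodes.

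Ppargc1b, which encodes the coactivator PGC-1β, had 55 thymic and 38 epigonadal UMIs (1053 and 144 CPM), a log2 ratio of 2.86 (2.25 to 3.51). The ratio was 2.13 in Ad Ia and 3.64 in Ad Ib nuclei, and 1.89 with nuclei under 15% mitochondrial UMIs only, which left 27 thymic nuclei. Erbb4 (chr1:68031884-69108576), a receptor tyrosine kinase for neuregulins, had 55 and 43 UMIs (1053 and 163 CPM), a ratio of 2.69 (2.09 to 3.30). The Erbb4 ratio was 2.74 in Ad Ia and 2.60 in Ad Ib nuclei, and differences between labels or genes were not tested. Ad IIa nuclei held 7 thymic and 0 epigonadal UMIs of Erbb4. Pank1, a pantothenate kinase that starts coenzyme A synthesis, had fewer counts, 26 and 5 UMIs (498 and 19.0 CPM), and a ratio of 4.60 (3.31 to 6.45). All 4 given markers were thus higher in thymic Ad I nuclei, and in unlabelled thymic barcodes each was far below its thymic Ad I level. Summed over the 4, unlabelled barcodes held 722 CPM in the thymic and 107 CPM in the epigonadal library. The difference between the libraries was thus not particular to Ad I nuclei.

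The other leading thymic-side genes fell into several roles. Akap1, which anchors protein kinase A to the mitochondrial outer membrane, had 37 thymic and 29 epigonadal UMIs, a ratio of 2.68 (1.95 to 3.44). Tob2, an antiproliferative protein that recruits RNA deadenylases, had 27 and 23 UMIs and a ratio of 2.56 (1.71 to 3.44). Ebf2, a transcription factor of brown and beige adipocytes, had 45 and 64 UMIs and a ratio of 1.83 (1.24 to 2.40). These carry roles in cAMP signalling at mitochondria, RNA turnover and brown fat identity. Slc36a2, a proton-coupled amino acid transporter, had 30 and 39 UMIs and a ratio of 1.96. Acadm, the mitochondrial medium-chain acyl-CoA dehydrogenase, had 26 and 35 UMIs and a ratio of 1.91 (1.12 to 2.68). In Ad IIa nuclei Acadm was higher in the epigonadal library, at 25 thymic and 184 epigonadal UMIs. With nuclei under 15% mitochondrial UMIs only, Akap1 came to 1.88 and Slc36a2 to 1.11, and with nuclei of 500 or more UMIs Ebf2 came to 1.22.

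Rgs7, Fgf14, Ptpn4 and Ralgapa2, which have roles in signalling, had smaller ratios than the genes above. Rgs7, a regulator of G protein signalling, had 51 thymic and 80 epigonadal UMIs, a ratio of 1.69 (1.15 to 2.21). Fgf14, an intracellular fibroblast growth factor that binds sodium channels, had 36 and 57 UMIs and a ratio of 1.68. Ptpn4, a tyrosine phosphatase, had 41 and 71 UMIs and a ratio of 1.55, or 0.87 with nuclei under 15% mitochondrial UMIs only. Ralgapa2, which inactivates the Ral GTPases used in insulin-driven glucose transport, had 87 and 178 UMIs and a ratio of 1.31 (0.92 to 1.68). Tmem45b, a transmembrane protein, had 38 and 54 UMIs and a ratio of 1.84. Without the condition on unlabelled barcodes, the calcium release channels Itpr2 (51 and 47 UMIs, 2.45) and Itpr1 (38 and 50 UMIs, 1.95) joined the leaders. Unlabelled thymic barcodes held 759 CPM of Itpr2 and 379 CPM of Itpr1, against 976 and 727 CPM in thymic Ad I nuclei.

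**Figure D3:**
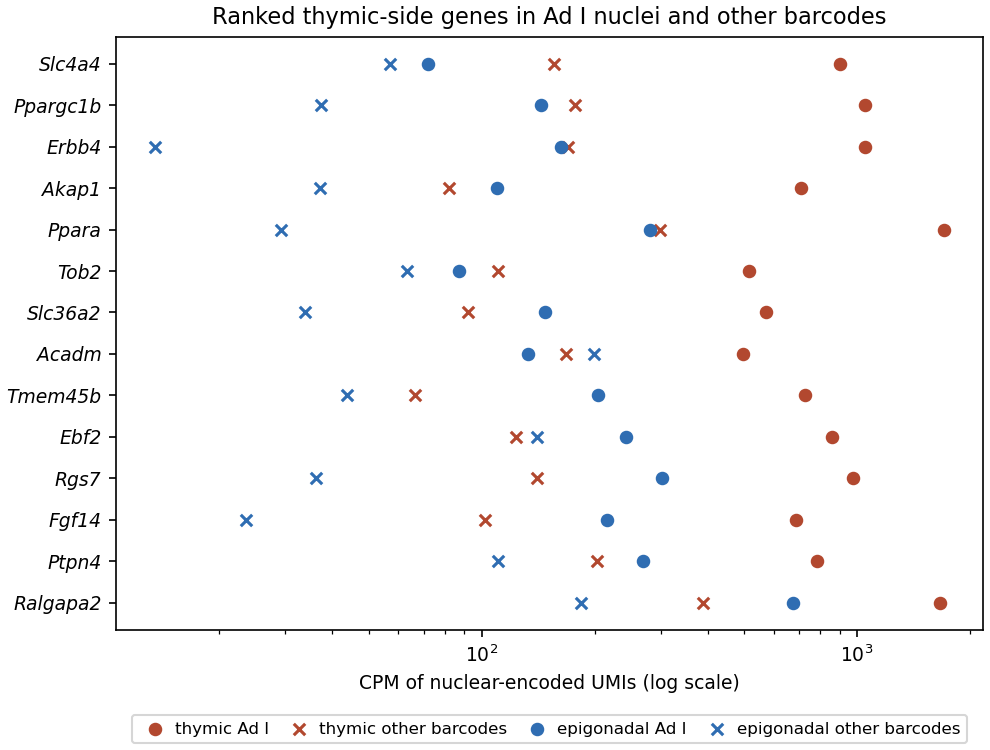
For each of 14 ranked thymic-side genes, the x axis (log scale) gives CPM in thymic Ad I nuclei and epigonadal Ad I nuclei (circles) and in the unlabelled barcodes of the same libraries (crosses). The thymic Ad I level is the rightmost symbol for every gene, and for Acadm the unlabelled epigonadal barcodes stand above the epigonadal Ad I nuclei.

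The epigonadal side was led by Ccdc80, a secreted matrix protein, the sialyltransferase St6galnac5, the guidance ligand Slit3 and the lipid droplet protein Cidec. By the same ranking the 15 leading genes were Ccdc80, St6galnac5, Slit3, Cidec, Slc1a3, Samd4, St3gal4, Dst, Baz1a, Slc2a13, Tenm4, Sh3pxd2a, Prr16, Adamts12 and Cachd1. All 15 were below 0 in Ad Ia nuclei alone, in Ad Ib nuclei alone and in the unlabelled barcodes, where 10 of them were past 2-fold. In Ad IIa nuclei 13 of the 15 were below 0 and 6 past 2-fold. Sh3pxd2a, a scaffold of matrix-degrading podosomes, stayed inside 2-fold at -0.92 (64 thymic and 617 epigonadal UMIs). The top nucleus supplied 7.14% to 100% of each gene's thymic UMIs (median 26.9%), since some genes had only a few. As on the thymic side, the ratios chose the genes and are given as a description.

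Slc1a3 (chr15:8634124-8710807), a glutamate and aspartate transporter, was the best-counted of them, with 104 thymic and 1750 epigonadal UMIs, or 1991 and 6633 CPM. Its log2 ratio was -1.73 (-2.04 to -1.45). It was detected in 37 of 84 thymic and 240 of 258 epigonadal nuclei, and 1 thymic nucleus held 28 of the 104 UMIs. Thinned to 300 UMIs a nucleus, which left out 9 thymic nuclei, the expected shares were 32.7% and 77.9%. Unlabelled barcodes had 284 and 553 CPM, below the Ad I level of each library. In the epigonadal library the ranking itself required this. Cidec (chr6:113424634-113435760), which drives lipid droplet fusion, had 32 and 676 UMIs (613 and 2562 CPM) and a ratio of -2.04 (-2.62 to -1.55). Among Ad Ia nuclei alone the ratio was -1.54, among Ad Ib nuclei -3.49 and among Ad IIa nuclei -4.74.

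Ccdc80, Slit3 and Adamts12 had few thymic counts. Ccdc80, which adipocytes secrete, had 4 thymic and 186 epigonadal UMIs, a ratio of -3.04 (-5.09 to -1.82), and Ad IIa nuclei had 5 and 150. Slit3 (chr11:35121456-35708507), a ligand of Robo receptors, had 6 and 211 UMIs and a ratio of -2.69 (-4.26 to -1.65), or -5.21 with nuclei under 15% mitochondrial UMIs only. Adamts12, a matrix metalloprotease, had 9 and 121 UMIs and a ratio of -1.34. Tenm4, a teneurin that mediates cell contacts, was at a higher level, with 42 and 435 UMIs and a ratio of -1.02. Dst, a linker of cytoskeletal filaments, had 18 and 286 UMIs and a ratio of -1.62 in Ad I nuclei but 486 and 1438 UMIs and a ratio of 0.06 in Ad IIa nuclei.

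The sialyltransferases split. St6galnac5, which adds sialic acid to gangliosides, had 2 thymic and 118 epigonadal UMIs, a ratio of -3.23 with a wide interval of -6.61 to -1.66, or -5.08 with nuclei of 500 or more UMIs. St3gal4 had 7 and 154 UMIs and a ratio of -2.03 (-3.46 to -1.05), or -4.76 with nuclei under 15% mitochondrial UMIs only. St3gal6, of the same family, stood on the thymic side with 14 and 28 UMIs and a ratio of 1.36 (0.30 to 2.31). Of the 29 listed glycan enzymes with at least 10 UMIs, 3 (10.3%) were past 2-fold on the thymic and 10 (34.5%, against 17% of all genes) on the epigonadal side, or 8 with zeros at their limit, with a median ratio of -0.17.

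The remaining ranked genes had diverse roles and low thymic counts. Samd4, a translational repressor, had 1 thymic and 61 epigonadal UMIs, a ratio of -3.02 with an interval from -8.92 to -1.06. Baz1a, a chromatin remodelling subunit, had 5 and 110 UMIs and a ratio of -1.99. Slc2a13, a proton-coupled inositol transporter, had 3 and 81 UMIs and a ratio of -2.20 (-4.73 to -0.82). These ratios rest on a handful of thymic molecules. Prr16 had 9 and 130 UMIs and a ratio of -1.44, and Cachd1, a calcium channel regulator, had 12 and 146 and a ratio of -1.21. In both genes all thymic UMIs came from Ad Ia nuclei and 0 from Ad Ib nuclei. Without the condition on unlabelled barcodes, Nnat led the side. Nnat, an imprinted membrane protein of the endoplasmic reticulum, had 0 thymic and 116 epigonadal UMIs and was at least 7.66-fold lower in thymic Ad I nuclei, against the limit of 3 UMIs over the thymic sum; its counting interval on the log2 scale reached up to -2.62. Reep5 (0 and 61 UMIs) and Ptprj (0 and 59) were at least 4.03-fold and 3.89-fold lower on the same basis. Nnat was also low in unlabelled thymic barcodes (6.95 CPM) against unlabelled epigonadal ones (295 CPM).

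**Figure D4:**
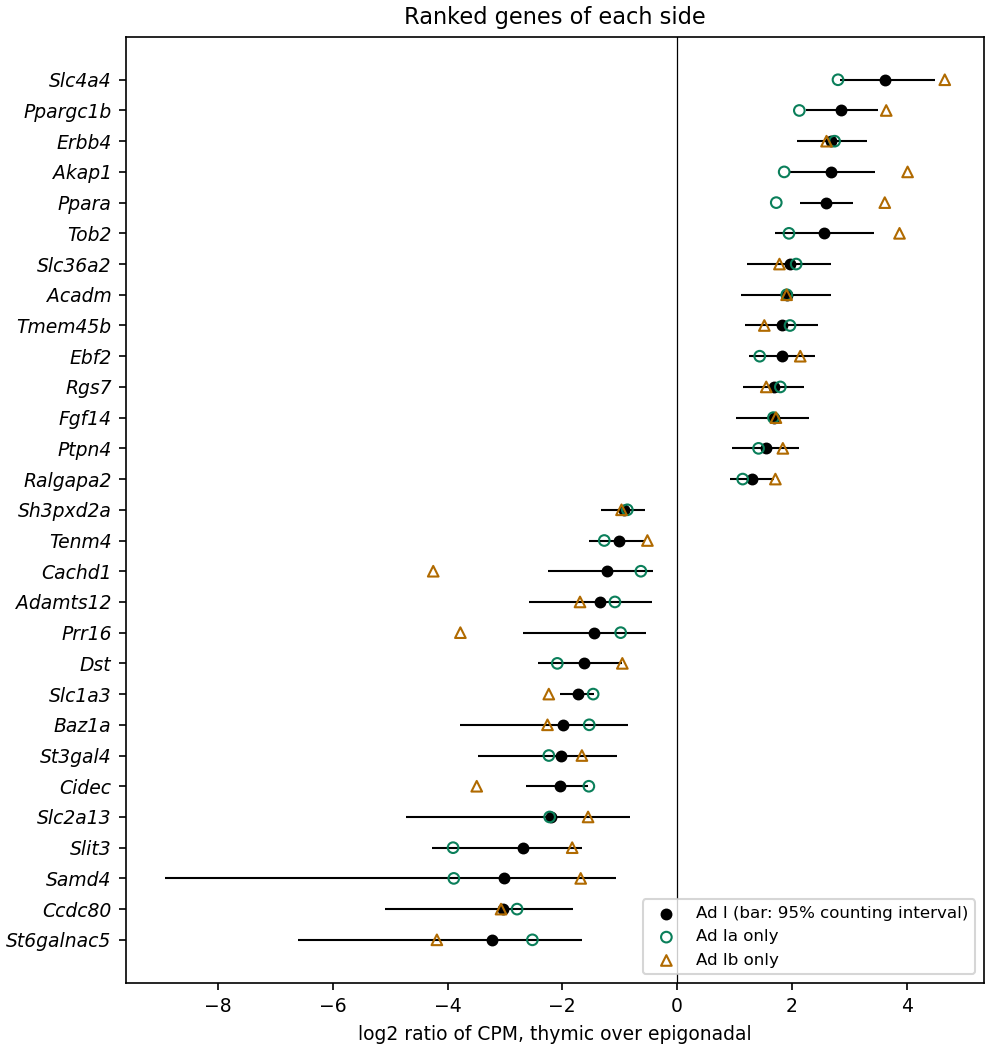
The log2 ratio of CPM, thymic over epigonadal, of 14 ranked thymic-side and 15 ranked epigonadal-side genes (x axis) is shown for all Ad I nuclei with its 95% counting interval (filled circle and bar), for Ad Ia nuclei (open circle) and for Ad Ib nuclei (triangle). Every Ad Ia and Ad Ib value lies on the same side of 0 as the Ad I value, and the intervals are widest for Samd4 and St6galnac5, which have 1 and 2 thymic UMIs.

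The genes that lead each side can be set beside their promoters, the stretch of DNA before the start of a gene. The RefSeq table (GRCm38.p6) held a promoter for 10 of the 15 ranked genes of each side. In some of them the 250 bases before the annotated start lie outside the gene, among them Slit3, Adamts12, Cachd1, Samd4, St3gal4, Slc2a13 and Tenm4. As examples, 4 other such windows, of Acadm and Tob2 on the thymic side and Cidec and Slc1a3 on the epigonadal side, are printed here 5′ to 3′ on the gene's strand, the minus strand in all 4. Capitals mark AGGTCA or its reverse complement, the core to which nuclear receptors such as PPARα and the ERRs bind. The windows are chr3:153944644-153944893 for Acadm, chr15:81858327-81858576 for Tob2, chr6:113435761-113436010 for Cidec and chr15:8710808-8711057 for Slc1a3.
Acadm: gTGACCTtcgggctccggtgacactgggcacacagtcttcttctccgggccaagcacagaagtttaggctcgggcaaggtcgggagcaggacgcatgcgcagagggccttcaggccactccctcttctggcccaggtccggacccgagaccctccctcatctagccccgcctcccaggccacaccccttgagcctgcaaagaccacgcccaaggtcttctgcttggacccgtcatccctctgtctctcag
Tob2: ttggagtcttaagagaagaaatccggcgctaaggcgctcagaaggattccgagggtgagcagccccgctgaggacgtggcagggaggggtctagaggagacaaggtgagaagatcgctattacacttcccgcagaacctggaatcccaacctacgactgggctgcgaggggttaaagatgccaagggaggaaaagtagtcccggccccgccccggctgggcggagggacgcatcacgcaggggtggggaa
Cidec: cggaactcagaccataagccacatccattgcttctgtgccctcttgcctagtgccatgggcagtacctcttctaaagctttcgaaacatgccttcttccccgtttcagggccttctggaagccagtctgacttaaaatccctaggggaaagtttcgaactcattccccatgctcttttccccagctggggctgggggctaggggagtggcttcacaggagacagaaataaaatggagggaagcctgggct
Slc1a3: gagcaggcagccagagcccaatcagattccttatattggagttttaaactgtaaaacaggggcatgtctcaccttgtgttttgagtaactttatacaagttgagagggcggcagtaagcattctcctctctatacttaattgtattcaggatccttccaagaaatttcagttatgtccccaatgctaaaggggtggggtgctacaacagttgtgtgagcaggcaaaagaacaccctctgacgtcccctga
Acadm held 1 such core and the other promoters shown held 0.

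Over all promoters the core did not set the leading genes apart by much. In windows of 300 bases, 250 before and 50 after the start, AGGTCA on either strand was found for 18.1% of all 27025 genes in the table and 14.8% of the 4240 measured genes with a promoter. Of the genes with 50 or more UMIs past 2-fold, 13 of 81 on the thymic side (16.0%) and 9 of 90 on the epigonadal side (10%) held it. Of the ranked genes with a promoter, 3 of 10 on the thymic side, Slc4a4, Acadm and Ralgapa2, and 0 of 10 on the epigonadal side did. The ERR element TCAAGGTCA, which contains the core, was found in 0 of either 2-fold set, as were the C/EBP palindrome TTGCGCAA and the PPAR direct repeat; their shares over all genes were 0.466%, 0.207% and 0.0481%. The median GC content was 65.3% for the thymic side and 63.7% for the epigonadal side of these sets, against 62.7% for measured genes. A match describes the letters and is no evidence of binding.

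Ppara, Ppargc1b and Esrrg were higher in thymic nuclei, while most regulators of the PPARs and ERRs stayed within 2-fold. Of 17 PPAR and ERR regulators with at least 10 UMIs, 4 (23.5%, against 15.2% of all genes) were past 2-fold on the thymic and 0 on the epigonadal side, with a median ratio of 0.68. The 4 include the given markers Ppara and Ppargc1b; without these, 2 of 15 (13.3%) were past it, near the share of all genes, with a median of 0.66. Besides Ppara and Ppargc1b, Esrrg, the receptor ERRγ, had 29 thymic and 14 epigonadal UMIs (555 and 53.1 CPM) and a ratio of 3.36 (2.42 to 4.42), or 2.56 with nuclei under 15% mitochondrial UMIs only. At the other end were the corepressor Nrip1 (30 and 258 UMIs, -0.75) and Rxra, the partner receptor of the PPARs (2 and 23 UMIs, -0.90, -4.32 to 0.83). Pparg, the master regulator of adipocytes, had 74 and 235 UMIs and a ratio of 0.68 (0.27 to 1.05).

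Of 20 known PPARα targets, 10 (50%, against 15.2% of all genes) were past 2-fold on the thymic and 1 (5%, against 17%) on the epigonadal side, with a median of 1.005. Of the 4 with 50 or more UMIs, 2 and 0 were (median 1.05). Some of the 20 reached the minimum of 10 UMIs only with their thymic counts, among them Cpt1b and Cidea, so the share leans to the thymic side. Cpt1b, the muscle-type carnitine palmitoyltransferase that admits fatty acids to mitochondria, had 13 thymic and 0 epigonadal UMIs and was at least 21.9-fold higher in thymic Ad I nuclei against the epigonadal limit of 3 UMIs; its counting interval on the log2 scale began at 3.94. Cidea, a lipid droplet protein of brown adipocytes, had 16 and 4 UMIs (306 and 15.2 CPM) and a ratio of 4.21 (2.70 to 6.38). Unlabelled barcodes had 201 and 11.9 CPM of Cidea, a ratio of 4.06, and Ad IIa nuclei a ratio of 2.19. The difference in Cidea was thus not particular to Ad I nuclei. Pdk4, the kinase that spares pyruvate, had 13 and 16 UMIs and a ratio of 2.05. Angptl4, a secreted inhibitor of lipoprotein lipase and also a target, had 4 and 40 UMIs and a ratio of -0.83 (-2.93 to 0.48). The 1 target past 2-fold on the epigonadal side was Cpt2, another carnitine palmitoyltransferase, with 1 and 15 UMIs and a counting interval that includes 0. Cpt1a, of the same family, had 0 thymic UMIs and under 10 UMIs over both sums. It was thus not among the 20, and its 0 says little about the depots. Cpt1a, Cpt1b and Cpt2 are also on the fatty acid oxidation list below. Of 12 other nuclear receptors, 5 (41.7%), but 1 of the 6 with 50 or more UMIs, were past 2-fold on the thymic and 0 on the epigonadal side, led by Nr2c2 (1.43) and Nr3c2, the mineralocorticoid receptor (27 and 53 UMIs, 1.38, or 0.68 with nuclei under 15% mitochondrial UMIs only).

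Genes of fatty acid oxidation and the TCA cycle were past 2-fold on the thymic side more often than all genes (15.2%). The symbol families of NADH dehydrogenase, cytochrome oxidase and ATP synthase were not. The NADH dehydrogenase family also holds assembly factors such as Ndufaf1 and Ndufaf3. Of 29 fatty acid oxidation genes, 12 (41.4%) were past 2-fold on the thymic and 1 on the epigonadal side (median 0.75). Of 29 TCA cycle and pyruvate genes, 15 (51.7%) were past it on the thymic and 1 on the epigonadal side (median 1.03). With 50 or more UMIs, 2 of 8 oxidation genes (median 0.63) and 2 of 4 TCA genes (median 1.10) were past 2-fold on the thymic side. On the epigonadal side 0 were. Over all genes with 50 or more UMIs the thymic share was 9.13%. Of 35 NADH dehydrogenase genes, 5 (14.3%) were past 2-fold on the thymic and 6 (17.1%, against 17% of all genes) on the epigonadal side, with a median of -0.47, or 5 and 3 and a median of -0.10 with zeros at their limit. Of 16 ATP synthase genes the counts were 0 and 6 (median -0.54), and of 11 cytochrome oxidase genes 0 and 3 (median -0.02). Acadl, the long-chain acyl-CoA dehydrogenase, had 19 and 27 UMIs and a ratio of 1.84, or 1.19 with nuclei under 15% mitochondrial UMIs only. Sucla2, a succinyl-CoA synthetase subunit, had 22 and 11 UMIs and a ratio of 3.30 (2.23 to 4.53), or 1.79 under the same restriction, while its counterpart Suclg2 had 2 and 19 UMIs and a ratio of -0.63 (-4.06 to 1.14). Me3, the mitochondrial malic enzyme, had 7 and 5 UMIs and a ratio of 2.78. Among 8 coenzyme A genes, Pank1 alone was past 2-fold. Of 19 genes of mitochondrial shape and quality, 2 were past 2-fold on the thymic side, among them Chchd3 of the cristae junctions (58 and 135 UMIs, 1.12, or 0.79 with TMM factors and 0.67 with the profile of unlabelled barcodes subtracted), and 1 on the epigonadal side (median 0.13).

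Of 12 thermogenic genes with enough counts, 9 (75%, against 15.2% of all genes) were past 2-fold on the thymic and 0 on the epigonadal side, with a median of 2.05, the highest of the 33 lists. The list includes the given markers Pank1, Ppara and Ppargc1b together with Cidea, Esrrg and Ebf2, so it is not independent of the genes above; without the 3 markers 6 of 9 were past 2-fold, with a median of 1.83. Irf4, a transcription factor of thermogenic adipocytes, had 7 and 6 UMIs and a ratio of 2.54 (0.76 to 4.41), and Prdm16, of the same programme, had 6 and 20 UMIs and a ratio of 0.68 (-1.01 to 1.97). The summed level of the list was 6834 CPM in thymic and 1436 CPM in epigonadal Ad I nuclei, against 1681 and 626 CPM in unlabelled barcodes. The 12 are of 31 listed genes in the files, and a gene near 0 on both sides did not enter. Some reached the minimum of 10 UMIs only with their thymic counts, among them Cidea (16 and 4 UMIs) and Irf4, so the share leans to the thymic side. Of the 5 with 50 or more UMIs, Ppara and Ppargc1b among them, 4 and 0 were past 2-fold (median 1.96). Over all genes with 50 or more UMIs the thymic share was 9.13%. Ucp1, the uncoupling protein that defines brown fat, was among those under the minimum, with 5 thymic and 0 epigonadal UMIs.

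**Figure D5:**
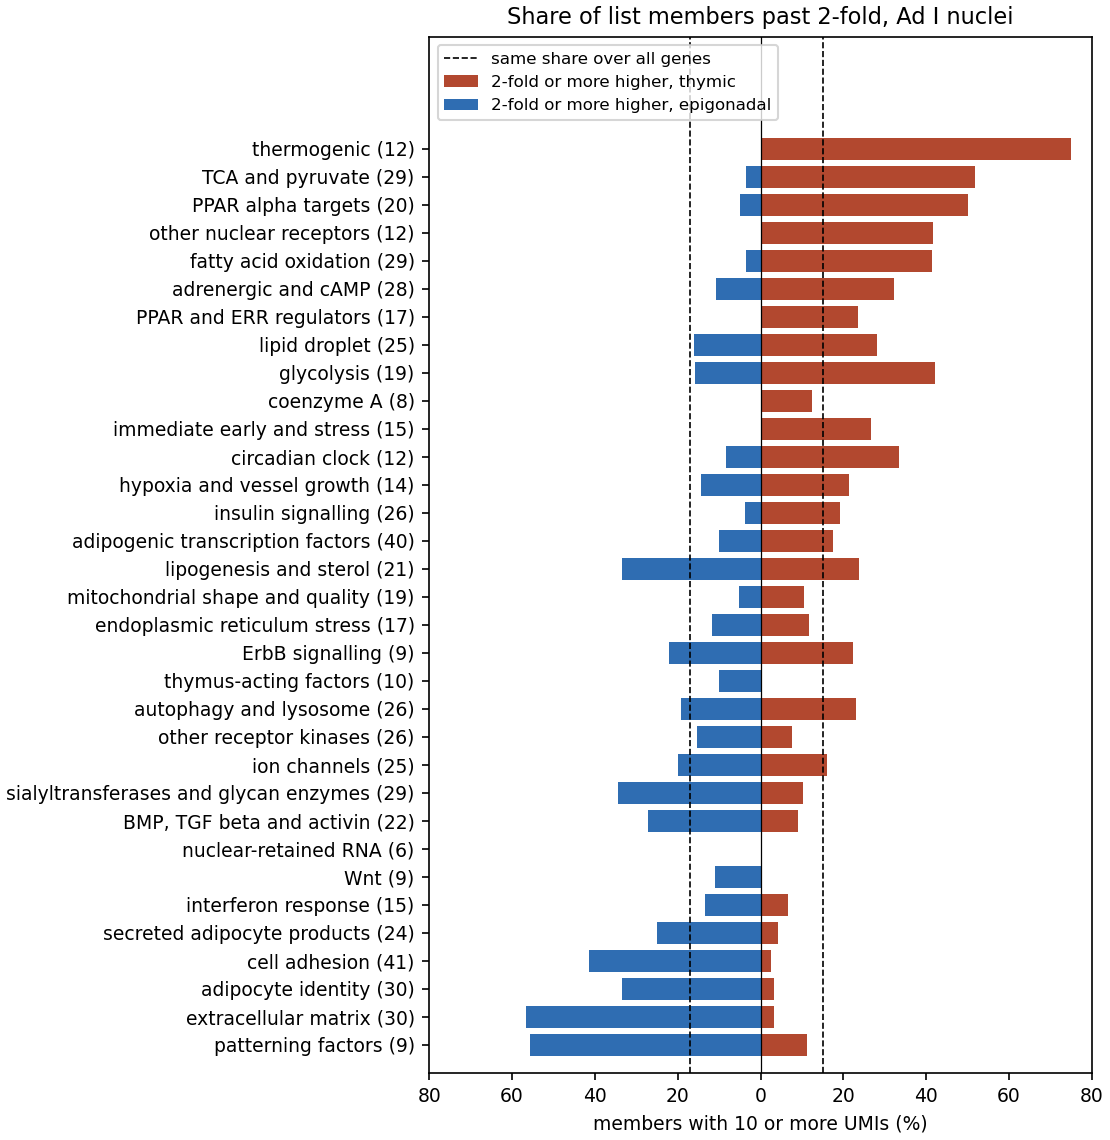
For each list, the share of members with 10 or more UMIs (number in parentheses) that were 2-fold or more higher in thymic Ad I nuclei (right) or epigonadal Ad I nuclei (left) is drawn beside the same share over all genes, 15.2% and 17% (dashed). The lists that reach far beyond the right line include the thermogenic, TCA, PPARα target, glycolysis, nuclear receptor, oxidation, circadian and adrenergic ones, and those far beyond the left line include the matrix, patterning, adhesion, glycan enzyme, adipocyte identity and lipogenesis ones; zeros are not set at their limit here.

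Adrenergic and cAMP signalling was mixed in its receptors and cyclases. Of 28 genes, 9 (32.1%, against 15.2% of all genes) were past 2-fold on the thymic and 3 (10.7%, against 17%) on the epigonadal side (median 0.75), and of the 10 with 50 or more UMIs, 3 and 2. Adra1a, the α1A receptor, had 21 thymic and 14 epigonadal UMIs and a ratio of 2.90 (1.88 to 4.01). Adrb3, the β3 receptor through which catecholamines drive lipolysis, stood on the other side, with 11 and 137 UMIs and a ratio of -1.24 (-2.34 to -0.42), which was -0.77 without the 5 largest nuclei of each library and -0.58 with each nucleus weighted equally. The cyclases split likewise, with Adcy3 at 2.78 (7 and 5 UMIs) and Adcy5 at -1.45 (6 and 89 UMIs, -3.04 to -0.38). Pde3b, the phosphodiesterase through which insulin lowers cAMP, had 114 and 345 UMIs and a ratio of 0.74.

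Growth factor receptors were found on both sides. Of 9 ErbB pathway genes, 2 (22.2%, against 15.2% of all genes) were past 2-fold on the thymic side. These were the given marker Erbb4 and Lrig2 (8 and 14 UMIs, 1.57). On the epigonadal side 2 were past it (22.2%, against 17%), or 1 with zeros at their limit. Of these, Egfr had 3 and 44 UMIs and a ratio of -1.33 (-3.87 to 0.10), or -3.67 without the 5 largest nuclei of each library. The adipocyte neuregulin Nrg4, a ligand of ErbB4, had 28 and 90 UMIs and a ratio of 0.67 (-0.02 to 1.28). Of 26 other receptor kinases, 2 (7.69%) were past 2-fold on the thymic and 4 (15.4%, near the 17% of all genes) on the epigonadal side (median -0.09). Ntrk3, the neurotrophin-3 receptor, had 29 and 17 UMIs and a ratio of 3.09 (2.19 to 4.06), whereas Pdgfrb had 0 and 25 UMIs, at least 1.65-fold lower in thymic nuclei. Of 26 insulin signalling genes, 5 (19.2%, near the 15.2% of all genes) and 1 were past 2-fold (median 0.31), with Slc2a4, the insulin-regulated glucose transporter, highest at 1.995 (7 and 9 UMIs, 0.31 to 3.57).

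Lipid synthesis and storage genes went both ways. Of 21 lipogenesis and sterol genes, 5 (23.8%, against 15.2% of all genes) were past 2-fold on the thymic and 7 (33.3%, against 17%) on the epigonadal side, or 3 of 21 with zeros at their limit, where 9.26% of all genes were (median 0.29). Fasn, the fatty acid synthase, had 1 thymic and 62 epigonadal UMIs and a ratio of -3.04 (-8.94 to -1.09). In contrast Acaca, the enzyme before it in the pathway, had 91 and 251 UMIs and a ratio of 0.88 (0.51 to 1.22). The elongases Elovl6 (11 and 5 UMIs) and Elovl5 (17 and 18) had ratios of 3.40 and 2.26, and Mlxipl, the carbohydrate-response factor ChREBP, had 33 and 58 UMIs and a ratio of 1.53 (0.86 to 2.16). Fasn was at 127 CPM in unlabelled thymic barcodes, above its 19.1 CPM in thymic Ad I nuclei.

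Of 25 lipid droplet genes, 7 (28%, against 15.2% of all genes) were past 2-fold on the thymic and 4 (16%, near 17%) on the epigonadal side (median 0.64). Of the 11 with 50 or more UMIs the counts were 1 and 2 (median 0.25), so the balance rests on low counts. Cidea and Cidec, related droplet proteins, stood at opposite ends, at 4.21 and -2.04. Abhd5, the activator of triglyceride lipase, had 14 and 18 UMIs and a ratio of 1.98, and Mgll, the monoglyceride lipase, had 34 and 419 UMIs and a ratio of -1.27 (-1.84 to -0.78). Plin1 (46 and 163 UMIs) had a ratio of 0.52 (0.01 to 0.99). Of 19 glycolysis and glycogen genes, 8 (42.1%, against 15.2% of all genes) and 3, or 1 with zeros at their limit, were past 2-fold (median 0.64), and of the 4 with 50 or more UMIs 0 and 0. They ran from Ppp1r3b, a glycogen-targeting phosphatase subunit (8 and 2 UMIs, 4.10, 2.01 to 7.61), to Pygb, brain-type glycogen phosphorylase (0 and 36 UMIs, at least 2.38-fold lower).

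Of the general adipocyte genes most lay within 2-fold, and those beyond it were mostly higher in epigonadal Ad I nuclei. Of 30 adipocyte identity genes, 1 was past 2-fold on the thymic and 10 (33.3%, against 17% of all genes) on the epigonadal side, or 8 with zeros at their limit, with a median of -0.73, which was -0.20 with the profile of unlabelled barcodes subtracted and -0.06 with a pseudocount of 5. Their summed level was 36274 and 52121 CPM in Ad I nuclei and 10535 and 42731 CPM in unlabelled barcodes, so the unlabelled levels differed in the same direction; their part in the ratios was not tested. Of the 14 adipocyte genes used to check the labels, 11 were within 2-fold, with a median of -0.23. Fabp4, the fatty acid binding protein, had 148 and 1629 UMIs (2833 and 6174 CPM) and a ratio of -1.12 (-1.38 to -0.88). Unlabelled barcodes held more Fabp4 than Ad I nuclei, 3101 and 15392 CPM. Subtracting their profile took 11.8% of the thymic and 44.0% of the epigonadal UMIs. The epigonadal sum of Fabp4 then came to 0 and the ratio turned positive. The share taken was the T cell list's level in Ad I nuclei over that in unlabelled barcodes. In the epigonadal library these were 500.3 and 1136 CPM, with 8 of the 18 T cell genes at 0 in Ad I nuclei. Of unlabelled epigonadal barcodes, 90.3% held 2 or more of the 14 adipocyte genes. The subtraction thus also takes out adipocyte RNA and cannot tell it from background. Retn (resistin) had 7 and 153 UMIs and a ratio of -2.02, or -0.80 with the profile subtracted, and Adipoq (adiponectin) 12 and 101 and a ratio of -0.69 (-1.74 to 0.13), which became 1.40 with it subtracted. Acsl1 (103 and 294 UMIs, 0.83), Lpl (137 and 481, 0.53) and Dgat2 (21 and 56, 0.94) were somewhat higher in thymic nuclei, and Ghr, the growth hormone receptor, was at -0.45 (518 and 3586 UMIs). The natriuretic peptide clearance receptor Npr3 had 0 and 27 UMIs, at least 1.78-fold lower in thymic nuclei.

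Of 24 secreted adipocyte products, 1 was past 2-fold on the thymic side, Nampt (13 and 28 UMIs, 1.26, but 0.92 with TMM factors, 0.63 in Ad Ia nuclei and 0.85 with nuclei under 15% mitochondrial UMIs), and 6 (25%, against 17% of all genes) on the epigonadal side, or 4 with zeros at their limit (median -0.35). Agt, angiotensinogen, had 0 and 44 UMIs and was at least 2.90-fold lower in thymic nuclei; unlabelled barcodes had 3.04 and 59.6 CPM. Lep, leptin, had 0 and 14 UMIs, a difference not detectable at the thymic depth. Of 10 factors known to act on thymocytes or thymic epithelium, 0 were past 2-fold on the thymic and 1 on the epigonadal side, or 0 with its count of 0 at the limit, and the median was 0.01.

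Extracellular matrix genes were often higher in epigonadal Ad I nuclei, and many rest on a thymic count of 0. Of 30, 1 was past 2-fold on the thymic and 17 (56.7%, against 17% of all genes) on the epigonadal side, with a median of -1.68. Of the 30, 11 had a count of 0 on 1 side; with these at the limit, 9 of 30 were past 2-fold on the epigonadal side, where 9.26% of all genes were, and the median was -0.50. Among the 10 with 50 or more UMIs, 0 and 2 were past 2-fold, with a median of -0.48. Col5a2 (0 and 38 UMIs) and Col15a1 (0 and 36) were at least 2.51-fold and 2.38-fold lower in thymic nuclei. Lamb1, a laminin of the basement membrane, had 11 and 34 UMIs and a ratio of 0.75. Summed over the list, the level was 3005 CPM in thymic and 5556 CPM in epigonadal Ad I nuclei, and 1870 and 5856 CPM in unlabelled barcodes, so the epigonadal Ad I nuclei were near the level of their surroundings. Markers of other cells differed too. Of 8 fibroblast genes with at least 10 UMIs, 5, or 3 with zeros at their limit, were past 2-fold on the epigonadal side, among them Dcn (0 and 24 UMIs) and Col15a1, and all 5 are also on the matrix list. Ebf2 and Abca8a were past it on the thymic side. Of 8 macrophage genes 6, or 4 with zeros at their limit, were past 2-fold on the epigonadal side. The part of these cells' RNA in the matrix ratios was not tested. Of the 11 collagen genes with at least 10 UMIs, 0 were past 2-fold on the thymic and 8 on the epigonadal side, or 6 with zeros at their limit.

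Cell adhesion genes were also more often past 2-fold on the epigonadal than on the thymic side. Of 41 cell adhesion genes, 1 was past 2-fold on the thymic and 17 (41.5%, against 17% of all genes) on the epigonadal side, or 8 of 41 with zeros at their limit, against 9.26% of all genes (median -0.55, or -0.20 at the limit). Of 22 BMP, TGF-β and activin genes, 2 and 6 were past 2-fold, or 2 and 2 at the limit (median -0.17, or 0.01 at the limit). Of 9 Wnt genes, 0 and 1 (11.1%, against 17% of all genes) were, with a median of -0.30. Of the 8 adhesion genes with 50 or more UMIs, 1 and 2 were past 2-fold. A count of 0 on 1 side was held by 9 of the adhesion and 4 of the BMP, TGF-β and activin genes.

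Patterning factors and channels were sparse. Of 9 patterning factors with enough counts, 1 was past 2-fold on the thymic and 5 on the epigonadal side, and all 5 had 0 thymic UMIs, so that 0 were past it with zeros at their limit. Tbx15, a T-box factor of white and brown fat depots, had 0 and 28 UMIs (at least 1.85-fold lower in thymic nuclei) and Hoxa3 had 0 and 20, a difference not detectable at the thymic depth. Meis2 (15 and 34 UMIs) stood on the thymic side with a ratio of 1.18 (0.17 to 2.07), which was 0.84 with TMM factors, 0.77 without the 5 largest nuclei of each library and 0.34 in Ad Ib nuclei, and Meis1 had 9 and 29 UMIs and a ratio of 0.70. Of 25 ion channel genes, 4 (16%) and 5 (20%) were past 2-fold, near the 15.2% and 17% of all genes (median -0.10, or 4 and 1 and a median of 0.41 with zeros at their limit), from Itpr2 and Clic5 (8 and 8 UMIs, 2.34, or 5.69 with the profile of unlabelled barcodes subtracted) to Cacna1e (0 and 30 UMIs, at least 1.98-fold lower). Of 77 solute carriers, the family of Slc4a4, Slc36a2, Slc1a3 and Slc2a13, 18 (23.4%) and 15 (19.5%), or 7 with zeros at their limit, were past 2-fold, not far from the 15.2% and 17% of all genes, and the median was 0.01.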

How the data were processed

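The deposited files hold counts: UMIs per gene and barcode from cellranger 7.2.0 per the file headers, and the authors' metadata with a label, a doublet class and a mitochondrial percent for labelled nuclei (all Ad I nuclei are singlets). The submitters' processing notes name Seurat 5.1.0, Cell Ranger ARC 2.0.2 and mm10; no source at hand says whether introns were counted. Labelled thymic and epigonadal nuclei differ in the least UMIs and the highest mitochondrial percent they show.

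Here counts of Ad Ia and Ad Ib nuclei were summed per library and divided by the nuclear-encoded total (CPM). The log2 ratio used a pseudocount of 0.5 UMIs; 95% intervals are exact (Clopper-Pearson on the split of UMIs). Genes with at least 10 UMIs over both sums were compared, and 2-fold or more was the call. There is 1 library per depot, so no p-value was computed. Ratio and interval code was tested on simulated data. Tools were Python 3.11.15, scipy 1.17.1, R 4.3.3 and edgeR 4.0.16 (TMM factors only).

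Named genes are the 4 given markers, the 2 highest and 2 lowest of each list, the 15 leading genes per side with 50 or more UMIs and 2 times the level of unlabelled barcodes, and 8 per side without that condition; genes of the mitochondrial genome, of ribosomal proteins and predicted ones were not named, and 1 ranked gene is not reported here. Further well-known adipocyte, lipid and T cell genes were named after their values were seen. Members and the 33 gene lists (1238 of 1240 symbols matched, markers included) were chosen with earlier results of these data known. Alternatives covered scaling, weighting, labels, background, nuclei, pseudocount and the count minimum; 2 were added after seeing the data (zeros at their limit, nuclei under 15% mitochondrial), and 3 lists were also counted without Ebf2 or the given markers, likewise added after seeing the data. The chromatin files and the libraries from 6-month females were not used here.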

Additional observations from a re-analysis of the deposited data

Results flagged for a closer look

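Of the 1002 genes eligible for ranking, 7 had an interval above 0 in 1 of the labels Ad Ia and Ad Ib and below 0 in the other. The difference between the labels was not tested, the labels share their libraries, and these genes were picked for this pattern. Camk1d, a calmodulin-dependent kinase, was the best-counted, with log2 ratios (thymic over epigonadal) of 0.56 in Ad Ia (142 thymic and 503 epigonadal UMIs) and -0.53 in Ad Ib (105 and 744 UMIs), and 0.00 over both. Its level was higher in unlabelled barcodes, 7052 and 9548 CPM, than in Ad I nuclei, 4728 and 4726 CPM.

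In 5 genes the thymic side was low in Ad Ia and high in Ad Ib. Plcb4, a phospholipase C, had ratios of -3.03 (1 and 63 UMIs) and 1.87 (32 and 43 UMIs). Flt1, a receptor for vascular growth factors, had -3.35 (0 and 26 UMIs, a value that depends on the pseudocount) and 1.11 (24 and 55 UMIs). Ccdc85a had -3.51 (0 and 29 UMIs, likewise) and 1.68 (24 and 37 UMIs). Flt1 is on the endothelial list, which summed to 253 CPM in thymic Ad Ia and 4231 CPM in thymic Ad Ib nuclei, against 1142 and 2861 CPM in the epigonadal ones; its part in these ratios was not tested. Tom1l2 had -1.87 and 1.02, and Pdzd2 had -1.03 and 1.37. Trf, transferrin, went the other way, with 1.10 in Ad Ia (20 and 49 UMIs) and -4.12 in Ad Ib (0 and 42 UMIs, likewise).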

How the results depend on the processing

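Counts were recomputed under 17 alternatives, the medians of the 33 lists under 16 or 17 and the ratios of the 99 named genes under 9 to 14, fewer where counts were low. The 810 genes 2-fold or more higher in the thymic sum became 397 with TMM factors, 273 with median-of-ratios scaling, 1391 with the unlabelled barcodes' profile subtracted (11.8% of the thymic and 44.0% of the epigonadal UMIs), 2125 with a pseudocount of 5, 99 at a minimum of 50 UMIs and 2907 at a minimum of 1 UMI. The 911 higher in the epigonadal sum became 1529 with median-of-ratios scaling, 477 in Ad Ib nuclei alone, 37 with a pseudocount of 5, 495 with zeros at their limit, 115 and 2000 at minimums of 50 and 1 UMI, and 325 at a mean CPM of 50. A pseudocount of 5 weighs more on the smaller thymic sum by construction and put the median of all genes at 0.83; the thymic share of genes past 2-fold was then 98.3%. That share was 58.2% with the profile subtracted, 57.2% in Ad Ib nuclei, 62.1% with zeros at their limit, 59.2% at 1 UMI and 68.7% at a mean CPM of 50. For these, beyond the lower minimum and the limit set on zeros, the cause was not tested.

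The 29 ranked genes named kept their sign in all 14 alternatives that gave them a value. Among all 99 named genes, 3 past 2-fold changed sign. Lep came to 0.41 with a pseudocount of 5 and 0.11 with zeros at their limit, Hoxa3 to 0.015 with a pseudocount of 5, and Fabp4 to 9.70 with the profile subtracted, where its epigonadal sum was 0. A change of scale moves every median alike, so list medians were also set against that of all genes under the same alternative. Of 33, 11 kept their side throughout, among them the matrix, adhesion and adrenergic lists, and 22 did not, among them ErbB, ion channels, lipogenesis, insulin and autophagy. Taken against 0, the medians of 24 of the 33 lists changed sign in 1 or more alternatives. That of cell adhesion reached 0.53 and that of secreted products 0.54. The matrix list's median came to 0.14 with a pseudocount of 5. That of patterning factors came to 0.089 in Ad Ib nuclei, 0.49 with a pseudocount of 5, 0.21 with zeros at their limit, 0.015 at 1 UMI and 0.21 at a mean CPM of 50. The medians of the PPARα target, TCA, oxidation and thermogenic lists stayed above 0, and that of the adipocyte identity list below 0, in 17 of 17 alternatives. The limit of 3 UMIs is worth 57.4 CPM in the thymic sum, and low thymic depth bears on each epigonadal-side count. Adipoq, inside 2-fold, came to 1.40 with the profile subtracted. Other named genes inside 2-fold also changed sign under 1 or more alternatives: Rxra, Angptl4, Suclg2, Meis1, Malat1 and Neat1. The subtracted profile holds adipocyte RNA too, so the turns of Fabp4 and Adipoq are no measure of background.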

Other observations

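Of 83 genes matched by a ribosomal protein symbol, 0 were past 2-fold on the thymic and 15 on the epigonadal side (18.1%, near the 17% of all genes). Their median log2 ratio was -0.47. The match by symbol also takes in kinases such as Rps6ka4, Rps6ka6 and Rps6kl1, though these 3 had 0 thymic UMIs and were not among the 83. Unlabelled barcodes held 46603 and 53202 CPM of RNA of this symbol family, against 14625 and 20694 CPM in Ad I nuclei.

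Over all genes 15.2% were past 2-fold on the thymic and 17% on the epigonadal side. Of 12 circadian clock genes the shares were 33.3% and 8.33% (4 and 1 genes, median 0.40). Of the 2 clock genes with 50 or more UMIs, 0 and 0 were past it (median 0.04). The clock list's median changed side of that of all genes in 3 of 16 alternatives. For 15 interferon response genes the shares were 6.67% and 13.3% (1 and 2 genes, median -0.33). They were 23.1% and 19.2% for 26 autophagy and lysosome genes (median -0.04), and 17.5% and 10% for 40 adipogenic transcription factors (median 0.31). Gm26917, a predicted long RNA that the rule on names leaves out, was the best-counted gene past 2-fold, with 357 thymic and 7238 epigonadal UMIs and a ratio of -2.003; unlabelled barcodes had a ratio of -0.50. Over 4 equal bins of gene length from short to long, the share past 2-fold on the thymic side was 12.6%, 20.2%, 16.7% and 11.3%, and on the epigonadal side 22.4%, 14.5%, 12.8% and 18.3%.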
